A study of Mus musculus with 12 samples.

Results

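The genes described here are the integrin subunits and laminin chains of the mouse, the receptors and the ligands of one system of cell attachment. They were taken as every transcript cluster whose symbol in the array's annotation is that of an integrin alpha or beta subunit or of a laminin alpha, beta or gamma chain. This gave 34 genes, 24 integrin and 10 laminin genes, of 19480 named genes on the array, and each had 1 cluster among the 22104 clusters measured. Itga1 and Itga10 were not analysed here. The cells were 3T3-L1, a mouse preadipocyte line that becomes fat-storing adipocytes under a hormone cocktail, and RNA was taken on day 8 of differentiation. From day 0 the cells received the ethanol and DMSO vehicle (control), alpha-linolenic acid (ALA) at 50 µM, a delta-6-desaturase (d6d) inhibitor at 5 µM, or ALA and the inhibitor together. All 4 treatments shared a maintenance medium with insulin at 5 µg/ml, and the labels name albumin, at 2% and free of fatty acids, only for the medium with ALA. Matching of albumin and vehicle across treatments is not stated in the labels. There were 3 arrays to a treatment, one each for passage 6, 7 and 8 of the single line, and arrays are named here by treatment and passage. Values are log2 signals, so a difference of 1 is a doubling, and "±" gives the SD over the arrays of a group. Between treatments the p-values measure the spread between cultures of this line. Between passages they measure the spread between the 4 treatment arms, since no passage was repeated within a treatment.

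An integrin is a pair of 1 alpha and 1 beta subunit that spans the plasma membrane, binds matrix proteins outside and couples them through adaptor proteins to actin inside. A laminin is a cross-shaped trimer of 1 alpha, 1 beta and 1 gamma chain, and laminins form the sheet on which the basement membrane around each fat cell is built. Preadipocytes rest on a fibronectin-rich matrix and adipocytes on a laminin-rich basement membrane, and the alpha subunit sets which of these a beta1 integrin binds.

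The labelled cell type was checked against its markers. The 10 measured adipocyte markers, Adipoq and Fabp4 among them, lay above the array median on all 12 arrays, and so did 9 of 12 preadipocyte and fibroblast markers. All 8 endothelial markers, Pecam1 and Cdh5 among them, and 7 of 9 macrophage and leukocyte markers, Ptprc and Adgre1 among them, lay below it on all 12. In bulk RNA, fewer cells of a type and less RNA per cell cannot be told apart. The ALA array of passage 7 stood apart, with correlations of 0.976 to 0.987 with the other arrays against 0.989 to 0.994 among the other 11 arrays. It was the highest of the 12 arrays for 12 of the 34 genes and the lowest for 4, where over all clusters it was the highest for 24.1% and the lowest for 20%. For several genes the values are given both with and without it.

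Of the 34 genes, 15 lay above the array median (6.14 to 6.27) on all 12 arrays, 16 lay below it on all 12, and 3 (Itga4, Itga8 and Lamc3) lay on both sides. Signals of different clusters are not on a common scale of abundance, so a gene's place relative to the array median says only whether its signal was bright or dim. The bright laminin chains were Lama4, Lamb1 and Lamc1, which together make the trimer known from fat and vessel basement membranes, and Lamb2 and Lamb3. Lama4 measured 10.73 ± 0.10 in control, 10.82 ± 0.14 with ALA, 10.75 ± 0.11 with the inhibitor and 10.70 ± 0.05 with both (n = 3 each). Lamb1 ranged over the 12 arrays from 9.61 to 9.94 and Lamc1 from 10.01 to 10.47. The other alpha chains, Lama1, Lama2, Lama3 and Lama5, were below the array median on every array.

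Among the beta subunits, Itgb1, the common partner of the matrix-binding alpha subunits, measured 11.03 ± 0.02 in control, 11.03 ± 0.14 with ALA, 11.03 ± 0.06 with the inhibitor and 10.95 ± 0.05 with both. Its 12 values spanned only 10.90 to 11.19. Itgb5 and Itgb3, partners of Itgav in receptors for vitronectin, were bright as well, at 8.86 to 9.40 and 7.35 to 7.64. Itgb6 (6.43 to 7.28) and Itgb7 (7.58 to 8.05) were above the array median too, while Itgb2, Itgb4 and Itgb8 were below it on every array. Itgb4 is the beta subunit of hemidesmosomes, the anchors of epithelia, where it pairs with Itga6.

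Among the alpha subunits, the laminin receptors Itga6 and Itga7 were bright (11.10 to 11.56 and 7.49 to 8.60) and the third laminin-binding subunit, Itga3, was dim (5.54 to 6.18). Of the subunits that read the RGD sequence of fibronectin and vitronectin, Itga5 (8.85 to 9.13), Itgav (8.33 to 8.89) and Itga2b (6.86 to 7.64) were bright. Itga2b is the alpha subunit of the platelet fibrinogen receptor, and the platelet genes Pf4 and Gp9 also lay above the array median on all 12 arrays, at 6.59 to 7.47 and 6.35 to 7.48. The third platelet gene measured, Ppbp, lay below it on all 12. The collagen receptors Itga2 and Itga11 were below the median throughout, as were the 5 leukocyte subunits Itgad, Itgae, Itgal, Itgam and Itgax. Dim genes varied more in the median, though bright Itga7 had an SD within treatments of 0.41. The SD within treatments had a median of 0.25 over the 16 dim genes and 0.12 over the 15 bright ones, against 0.20 over all clusters. The widest span over the 12 arrays, 4.44 to 6.18, belonged to Lama5 and rested on the ALA array of passage 7 at 6.18.

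**Figure D1:**
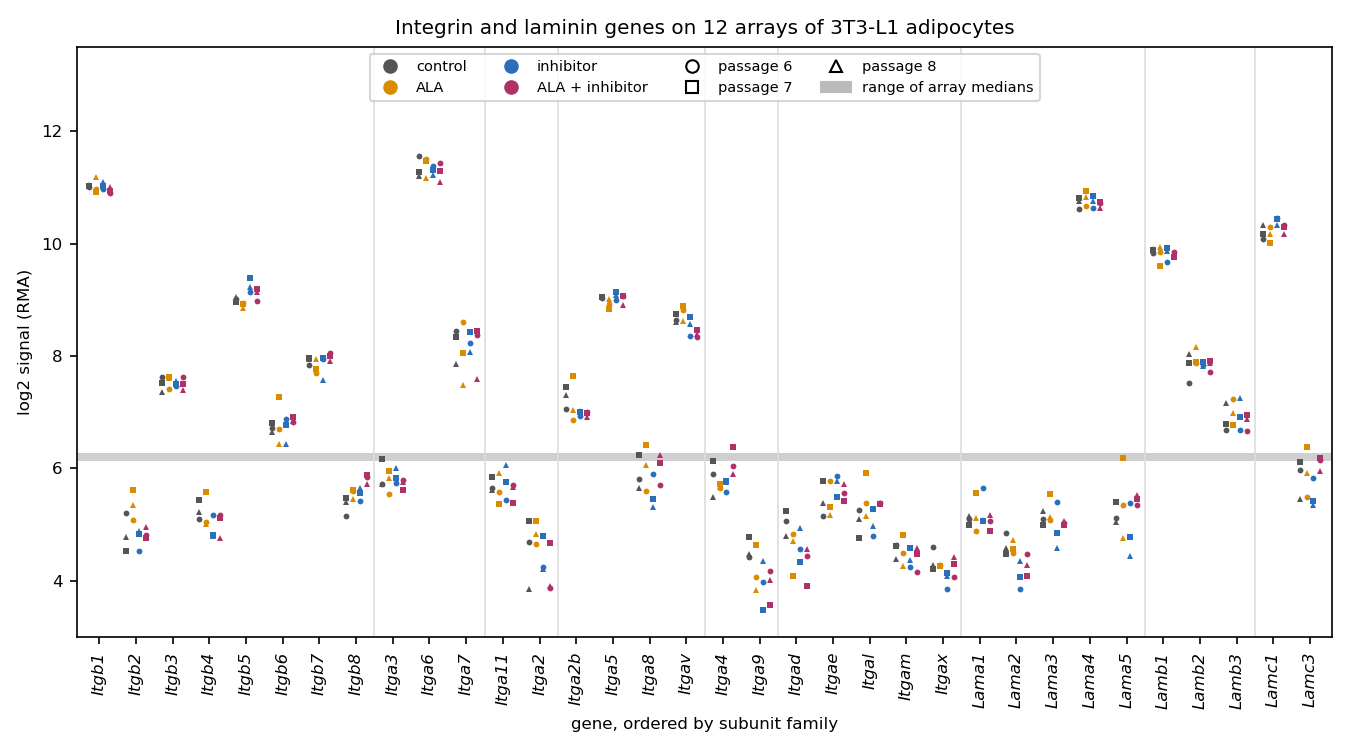
The vertical axis is the log2 signal and the horizontal axis lists the 34 genes by subunit family, with 1 point per array, colour for treatment and marker shape for passage, and a grey band for the range of the array medians. The 16 dim genes below the band scatter more than the 15 bright ones in the median. The bright genes run from tight, as Itgb1 between 10.90 and 11.19, to wide, as Itga7 between 7.49 and 8.60.

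The first comparison asked what ALA did, as the series design sets out. The integrin and laminin genes showed no difference with ALA past either threshold used here. Those were an adjusted p under 0.05 in limma, with Benjamini-Hochberg adjustment over all clusters, and the series' own unadjusted p under 0.01. Of the 34 genes 16 were higher and 18 lower (52.2% of all clusters were higher), with a median log2 difference of -0.0090 against 0.0076 over all clusters. None passed an unadjusted p under 0.01, which 0.525% of all clusters did, and 2 passed 0.05 (Itgb2 and Itgal), against 3.41% of all clusters. Across the array 0 clusters passed the adjusted threshold. The main basement membrane chains lay close to control, with differences of 0.09 for Lama4 (95% interval -0.16 to 0.34), -0.07 for Lamb1 (-0.33 to 0.18) and -0.04 for Lamc1 (-0.29 to 0.21). Itga6 differed by 0.03 (-0.27 to 0.33) and Itga7 by -0.16 (-0.77 to 0.44). This fit had no passage term, so differences between passages count in the spread behind these intervals. With passage as a replicate block the unadjusted p in limma went from 0.812 to 0.729 for Itga6 and from 0.57 to 0.346 for Itga7.

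With all arrays in the fit, the smallest p values with ALA belonged to leukocyte integrins. Itgb2, the beta subunit shared by the leukocyte receptors, read 5.20, 4.53 and 4.78 in control at passages 6, 7 and 8, and 5.09, 5.61 and 5.35 with ALA. The groups overlapped, and the passages did not go one way, with ALA lower at passage 6 and higher at 7 and 8. The log2 difference was 0.51 (SE 0.18, unadjusted p = 0.0149, limma adjusted p = 1). Without the ALA array of passage 7 it was 0.38 (unadjusted p = 0.0674 in limma). Itgal, the alpha subunit of the lymphocyte receptor for Icam1, differed by 0.44 (unadjusted p = 0.0398), and by 0.23 (unadjusted p = 0.205) without that array. Itgad differed by -0.49 (unadjusted p = 0.0563), with -1.15 of it at passage 7 against -0.23 and -0.07 at passages 6 and 8. Without that array it differed by -0.26 (unadjusted p = 0.267). Itgb8, a receptor for latent TGF-beta, followed at 0.21 (unadjusted p = 0.108). Itga2b and Itga9 differed more without that array. Itga2b was at -0.09 with it and -0.32 (unadjusted p = 0.0279) without it. Itga9 was at -0.38 (unadjusted p = 0.15 in limma) with it and -0.61 (unadjusted p = 0.0285) without it. Without that array these genes, and not the leukocyte integrins, had the smallest p of the 34. Among Itgb2, Itgal, Itgad and Itgb8, passage 7 gave the largest single difference for all but Itgb8. The 9 measured macrophage and leukocyte markers had 5 members higher and 4 lower with ALA, and their mean level was 4.94 to 5.15 with ALA and 4.94 to 5.14 in control. The values of ALA and control did not overlap for 2 of the 34 genes, Itga5 and Itgb5, both lower with ALA, which is 5.88% against 6.77% of all clusters (2.91% lower without overlap).

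The second comparison asked what the inhibitor did without added ALA. One gene of the 34, Lama2, was lower at an unadjusted p under 0.01, which is 2.94% against 0.855% of all clusters (0.534% lower), and none passed the adjusted threshold (0 of all clusters did). At an unadjusted p under 0.05 in limma there were 4 genes, or 11.8% against 4.32% of all clusters. There were 12 genes higher and 22 lower (49.2% of all clusters were higher), with a median of -0.04 against -0.0032 over all clusters. With each array centred on its median both values shifted together, to 0.0043 for the 34 genes and 0.05 over all clusters.

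Lama2 encodes the alpha chain of the laminin of muscle and nerve basement membranes. It read 4.86, 4.47 and 4.59 in control at passages 6, 7 and 8, and 3.85, 4.07 and 4.35 with the inhibitor. Every inhibitor value lay under every control value, and all of them were well below the array median. The log2 difference was -0.55 (SE 0.16, 95% interval -0.89 to -0.22, unadjusted p = 0.00374, limma adjusted p = 0.998). Leaving out 1 array took p to 0.0219 without control 6, 0.0222 without inhibitor 6 and 0.012 without inhibitor 7, and it stayed under 0.01 without each of the other 9 arrays.

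The next genes in this comparison were Itga9 (-0.63, unadjusted p = 0.0259), a receptor for tenascin C, Itgax (-0.33, unadjusted p = 0.0315) and Itgb5 (0.24, unadjusted p = 0.0499). Itga9 (3.48 to 4.79) and Itgax (3.86 to 4.60) were below the array median on every array. At passages 6, 7 and 8 Itga9 differed by -0.44, -1.31 and -0.12, and Itgax by -0.75, -0.06 and -0.19. Itgb5, which pairs with Itgav, read 9.02, 8.97 and 9.05 in control and 9.13, 9.40 and 9.22 with the inhibitor, so the groups did not overlap. The values of inhibitor and control did not overlap for 5 of the 34 genes (14.7%, against 10.8% of all clusters), Lama2, Itga9, Itgax and Itga2b being lower and Itgb5 higher. Over all clusters 4.97% were lower and 5.88% higher without overlap. Among the main basement membrane chains Lamc1 measured 10.41 ± 0.08 against 10.20 ± 0.12 (0.21, 95% interval -0.04 to 0.46), Lama4 differed by 0.02 (-0.23 to 0.27) and Lamb1 by -0.05 (-0.30 to 0.21). Preadipocyte and fibroblast markers were lower for 11 of 12 members in the same comparison. Their mean level was 9.18 to 9.52 with the inhibitor and 9.39 to 9.62 in control, with a median difference of -0.15. Adipocyte markers were lower too, for 8 of 10 members (median -0.07). The part of either list in these differences was not tested.

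In cells given ALA, the inhibitor was the subject of the next comparison. One gene, Itgav, was lower at an unadjusted p under 0.01 (2.94% against 1.47% of all clusters, 0.973% lower), and 0 of the 34 passed the adjusted threshold in limma, as did 0 of all clusters. At an unadjusted p under 0.05 there were 5 (14.7% against 7.27%). There were 11 genes higher and 23 lower (46.6% of all clusters were higher), with a median of -0.07 against -0.02 over all clusters, and the median was 0.0084 without the ALA array of passage 7. This comparison shares no array with the second one. It shares the ALA arrays with the first.

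Itgav, the alpha subunit of the vitronectin receptors, read 8.82, 8.89 and 8.63 with ALA at passages 6, 7 and 8, and 8.33, 8.47 and 8.40 with ALA and inhibitor. The groups did not overlap and the difference had the same sign at every passage (-0.49, -0.42 and -0.23). The log2 difference was -0.38 (SE 0.12, 95% interval -0.64 to -0.12, unadjusted p = 0.00765, limma adjusted p = 0.653). It was -0.33 (unadjusted p = 0.025) without the ALA array of passage 7. Leaving out 1 array moved p to between 0.01 and 0.029 in 8 of 12 cases (ALA 6 and 7, ALA plus inhibitor 6, 7 and 8, control 6 and 8, inhibitor 8), the difference staying between -0.46 and -0.33. With arrays centred on their medians it was -0.35 (unadjusted p = 0.0132). Its partners did not go with it in one direction, since Itgb5 differed by 0.20 (unadjusted p = 0.0929), Itgb3 by -0.04 and Itgb8 by 0.26 (unadjusted p = 0.0478).

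With passage as a replicate block, the passages being paired in this comparison, 3 genes were past an unadjusted p of 0.01 (8.82% against 2.54% of all clusters). They were Itgav (unadjusted p = 0.00365), Itga2 (unadjusted p = 0.00374) and Itga4 (unadjusted p = 0.00987), with limma adjusted p = 0.33, 0.33 and 0.393. Itga2, a collagen receptor, read 4.65, 5.07 and 4.83 with ALA and 3.87, 4.68 and 3.92 with both, lower at every passage although the groups overlapped (-0.69, SE 0.29, unadjusted p = 0.0353 without the block). Itga4, a receptor for Vcam1 and fibronectin, read 5.65, 5.73 and 5.67 with ALA and 6.05, 6.38 and 5.90 with both. All its values with both were above those with ALA (0.43, SE 0.16, unadjusted p = 0.0223 without the block). Itgb2 was lower, at 4.81, 4.76 and 4.96 against 5.09, 5.61 and 5.35 (-0.50, unadjusted p = 0.016, and -0.37 with unadjusted p = 0.072 without the ALA array of passage 7). The values of the groups did not overlap for 7 of the 34 genes (20.6%, against 11.6% of all clusters). Higher were Itga4, Itgb5 and Itgb8 (4.75% of all clusters) and lower were Itgav, Itgb2, Lama2 and Lama3 (6.85%). Itgb1 differed by -0.08 (95% interval -0.31 to 0.15), Itga6 by -0.10 (-0.40 to 0.20) and Lama4 by -0.12 (-0.36 to 0.13). Preadipocyte and fibroblast markers were again lower for 11 of 12 members (mean level 9.23 to 9.47 with both, 9.36 to 9.62 with ALA, median difference -0.19). Smooth muscle and muscle markers were lower for 7 of 8 members (median -0.18) and adipocyte markers for 6 of 10 (median -0.07). The part of these lists was not tested.

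**Figure D2:**
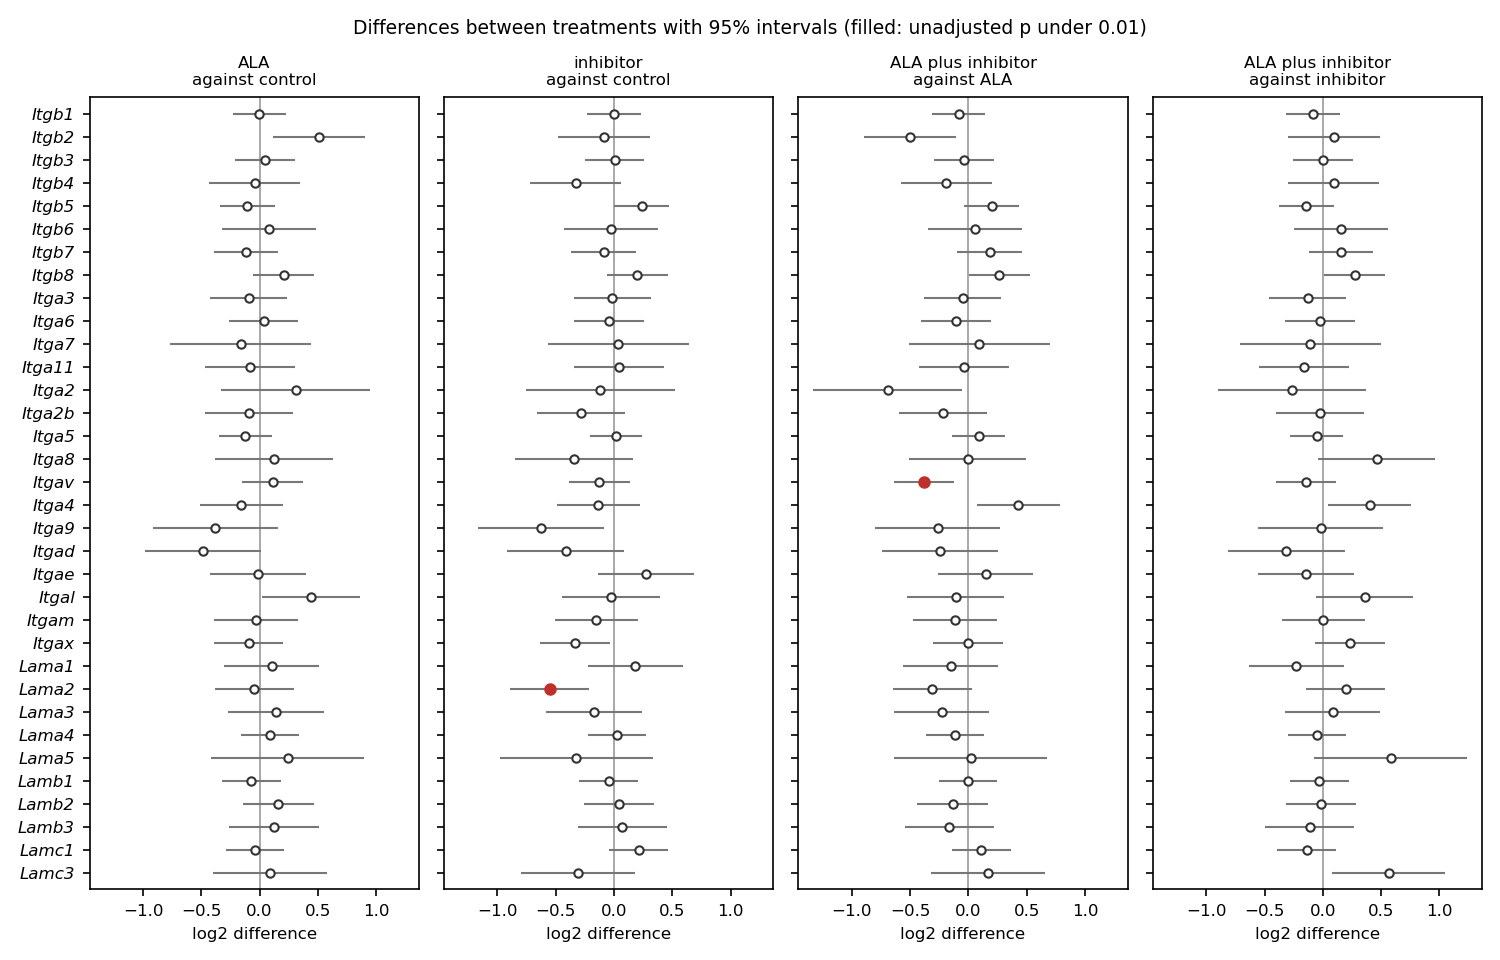
Each panel gives, for the 34 genes, the log2 difference of 1 comparison on the horizontal axis with its 95% interval, filled where the unadjusted p was under 0.01. Only Lama2 (inhibitor against control, -0.55) and Itgav (ALA plus inhibitor against ALA, -0.38) are filled, and the intervals of Itgb1, Lama4 and Lamb1 hold 0 in all 4 panels.

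The remaining comparison of the layout set ALA plus inhibitor against the inhibitor alone. None of the 34 genes passed an unadjusted p under 0.01 (0.728% of all clusters did) or the adjusted threshold in limma, and 3 passed 0.05 (8.82% against 3.56%). There were 15 genes higher and 19 lower (48.1% of all clusters were higher). Lamc3, a gamma chain outside the common trimers, read 5.83, 5.42 and 5.35 with the inhibitor and 6.15, 6.19 and 5.95 with both. The values did not overlap, and the log2 difference was 0.56 (SE 0.22, unadjusted p = 0.0264, adjusted p = 1 in limma). Itga4 differed by 0.40 (unadjusted p = 0.0293), Itgb8 by 0.27 (unadjusted p = 0.0409) and Itga8, a nephronectin receptor, by 0.46 (unadjusted p = 0.0703). Values did not overlap for 4 genes, all higher with both (Lamc3, Itga4, Itgb8 and Itgal), which is 11.8% against 9.73% of all clusters (4.82% higher without overlap). This comparison shares the arrays given both with the third one and the inhibitor arrays with the second.

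Whether the effect of ALA differed with and without the inhibitor was tested by the interaction. None of the 34 genes passed an unadjusted p under 0.01 (0.638% of all clusters did), none passed the adjusted threshold in limma, and Itga4 alone passed 0.05 (3.42%). There were 17 genes higher and 17 lower (49% of all clusters were higher). Its ALA difference was -0.16 without the inhibitor and 0.40 with it, an interaction of 0.56 (SE 0.23, unadjusted p = 0.0314, adjusted p = 1). The interaction was 0.72 at passage 6, 1.00 at passage 7 and -0.04 at passage 8. The next were Itgax (0.33, unadjusted p = 0.118), Itgb2 (-0.42, unadjusted p = 0.129) and Itgb7 (0.27, unadjusted p = 0.156). Without the ALA array of passage 7, Lamc3 (0.70, unadjusted p = 0.0304 in limma) and Itga4 (0.58, unadjusted p = 0.0379) passed 0.05.

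The inhibitor was then averaged over both media, 6 arrays with it against 6 without, a contrast added after the values were seen. Lama2 was lower with the inhibitor, at 4.19 ± 0.23 against 4.62 ± 0.15 (n = 6 each), a difference of -0.43 (SE 0.11, unadjusted p = 0.00185, limma adjusted p = 0.496). It was the single gene of the 34 past an unadjusted p of 0.01, or 2.94% against 1.9% of all clusters, and 6 passed 0.05 (17.6% against 8.76%). With passage as a replicate block Itgav passed as well (unadjusted p = 0.00528), making 2 genes, or 5.88% against 3.39% of all clusters. Without the block, the unadjusted p of Lama2 stayed between 0.000644 and 0.00623 in limma when any 1 array was left out. Itgav followed at -0.25 (unadjusted p = 0.0109), Itgb5 at 0.22 (unadjusted p = 0.0149) and Itgb8 at 0.23 (unadjusted p = 0.0182). The 2 inhibitor comparisons gave 17 of the 34 genes lower in both and 6 higher in both, together 23 with the same sign. Over all clusters 61.3% had the same sign, 32.7% being lower in both. Averaged the same way, ALA gave 0 genes past an unadjusted p of 0.01 (0.575% of all clusters) and 4 past 0.05 in limma (3.53%), Itgal (0.40), Itgb8 (0.24), Itgad (-0.40) and Itgb2 (0.30). Without the ALA array of passage 7 these were 0.29, 0.23, -0.28 and 0.24, with Itgad and Itgb2 past 0.05 no longer (unadjusted p = 0.0775 and 0.0858 in limma).

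**Figure D3:**
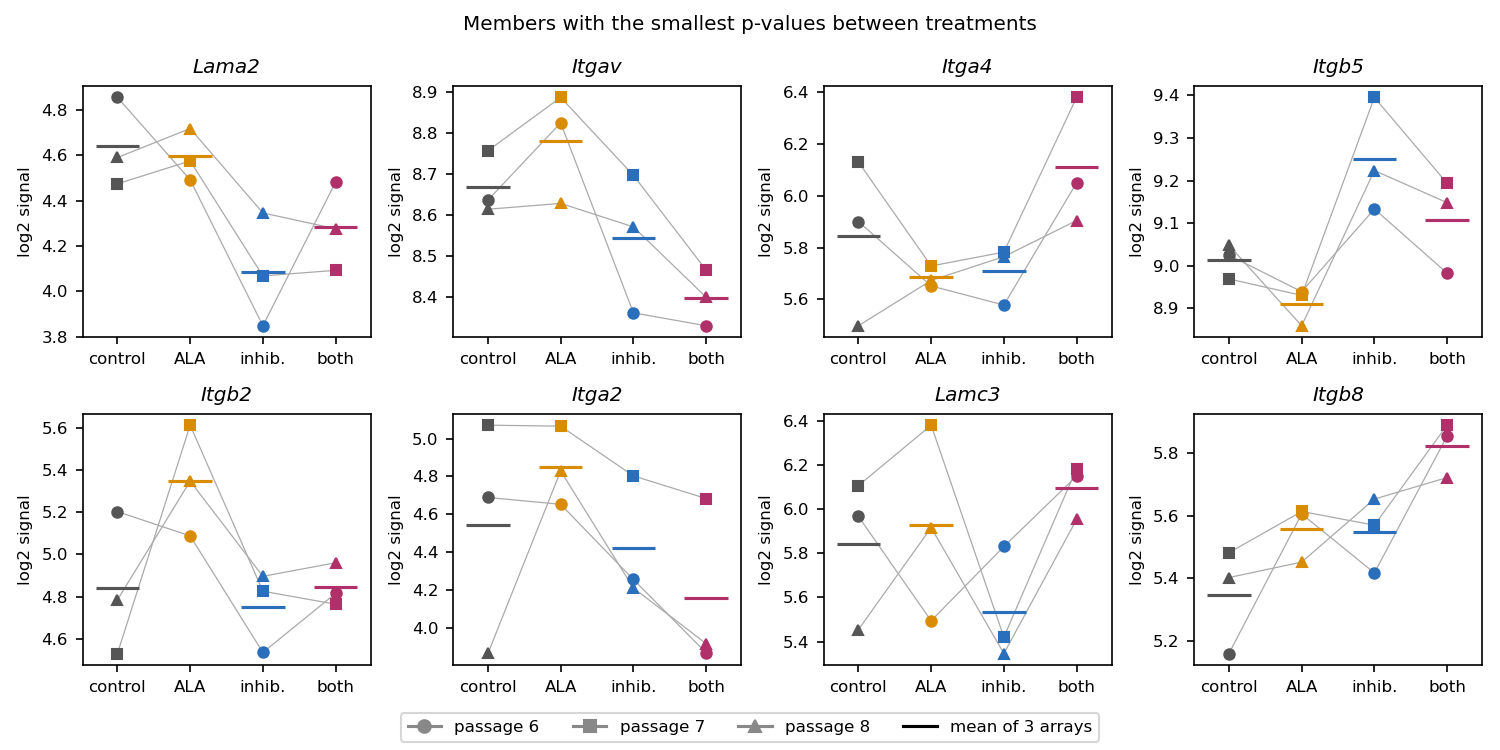
Each panel plots the log2 signal of 1 gene on the 12 arrays by treatment, with thin lines joining arrays of 1 passage and bars at the mean of 3 arrays; the vertical axes differ between panels and do not start at 0. Lama2 and Itgav sit lower in both inhibitor arms than in the matching arms without it and Itgb5 and Itgb8 higher, by 0.20 to 0.55 in size except for Itgav without ALA (-0.13).

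Passage was the other labelled difference, and each passage held all 4 treatments once. The arms stood in as replicates of a passage, so passage number and round of culture cannot be told apart. In the fit with a coefficient per treatment and per passage, Itga7 fell from passage 6 to passage 8. It read 8.44 in control, 8.60 with ALA, 8.24 with the inhibitor and 8.37 with both at passage 6. At passage 8 the same arms read 7.86, 7.49, 8.07 and 7.60. All 4 values of passage 8 were under all 4 of passage 6, and the arms at passage 7 read 8.33, 8.05, 8.43 and 8.45. The mean went from 8.41 ± 0.15 to 7.75 ± 0.26 (n = 4 each), a log2 difference of -0.66 (SE 0.14, 95% interval -0.98 to -0.34, limma adjusted p = 0.0497). The call stood at the edge of the threshold. Leaving out 1 array gave an adjusted p of 0.0633 to 0.172 in 10 of 12 cases and under 0.05 only without ALA 7 or inhibitor 6. With arrays centred on their medians the adjusted p was 0.0673. The unadjusted p was 0.000949, and it stayed under 0.01 with any 1 array left out.

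Itga6, the other bright laminin-binding subunit, went the same way. It read 11.56, 11.51, 11.38 and 11.44 at passage 6 in control, ALA, inhibitor and both, and 11.21, 11.17, 11.22 and 11.10 at passage 8, with no overlap. The difference was -0.29 (SE 0.08, unadjusted p = 0.00488, limma adjusted p = 0.116), and p was 0.0111 to 0.0218 without ALA 6, ALA 8, both 6, both 8, control 6 or control 8. Itgb1, the beta partner of both, differed by 0.12 (95% interval -0.06 to 0.29). The dim laminin-binding subunit Itga3 differed by 0.13 (-0.14 to 0.41). Itga6 and Itga7 were the 2 genes of the 34 past an unadjusted p of 0.01. That is 5.88% against 5.95% of all clusters (2.37% lower), and the 1 adjusted call is 2.94% against 1.91% (0.602% lower), so the set as a whole did not stand out from the array. The values did not overlap for these 2 genes (5.88% against 12.5% of all clusters, 5.35% lower). Of the 34 genes 19 were higher and 15 lower (47.1% of all clusters were higher), with a median of 0.01 against -0.01. The laminin chains Lamb2 (0.24, unadjusted p = 0.04) and Lamb3 (0.25, unadjusted p = 0.106) followed in order of p.

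**Figure D4:**
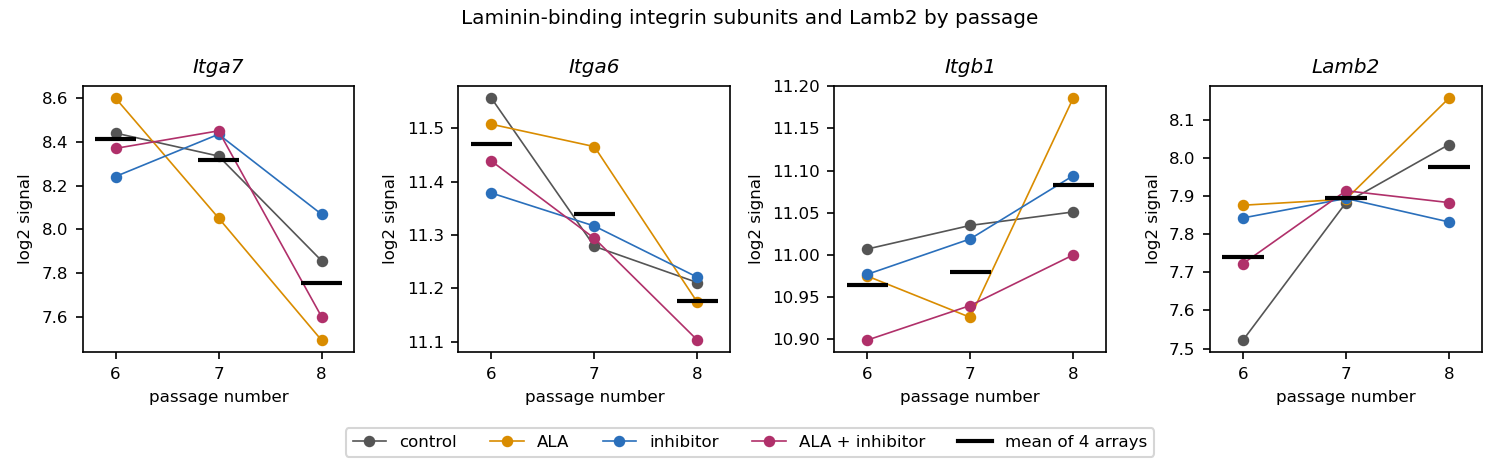
Log2 signal of 4 genes is plotted against passage number, 1 line per treatment, with black bars at the mean of 4 arrays; the vertical axes differ between panels and do not start at 0. Itga7 and Itga6 are lower at passage 8 than at passage 6 in all 4 treatments, while Itgb1 differs by 0.12 and Lamb2 by 0.24 in the other direction.

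Other genes of the system changed with passage as well, and their levels stand beside these results. Among 25 other integrin ligands 8 were higher and 0 lower at an unadjusted p under 0.01 (5.95% of all clusters passed), and 4 rose at an adjusted p under 0.05 in limma. These were Postn (periostin, 11.44 to 12.16, adjusted p = 0.0093), Tnc (tenascin C, 8.10 to 8.94, 0.0191), Thbs1 (thrombospondin, 7.33 to 7.97, 0.0201) and Ccn3 (5.06 to 6.03, 0.0173). Among 23 other basement membrane genes 4 were higher and 1 lower, with Smoc1 (0.61) and the heparan sulphate proteoglycan Agrn (0.41) past the adjusted threshold and Npnt, the ligand of Itga8, at -0.82 (limma adjusted p = 0.0571). Of 35 integrin adaptors and signalling genes 5 were higher and 2 lower. Rap1b, a small GTPase that activates integrins, fell from 11.24 to 10.49 (adjusted p = 0.00464 in limma), and Tns3 (0.53) and Rsu1 (0.33) were the next by p. One of 15 non-integrin laminin receptors and their modifiers was higher (Sgcb, 0.36), and of 10 tetraspanins and integrin partners Plaur was higher (0.43) and Cd82 lower (-0.37).

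Cell type markers also moved with passage. All 12 preadipocyte and fibroblast markers were higher at passage 8, 6 of them at an unadjusted p under 0.01, where over all clusters 47.1% were higher and 5.95% passed in either direction. The list mean was 9.47 to 9.62 against 9.18 to 9.39 at passage 6. Col1a1 rose by 0.48 (limma adjusted p = 0.0159). Of 10 adipocyte markers 9 were higher and 4 passed an unadjusted p of 0.01 (list mean 11.31 to 11.42 against 11.04 to 11.34). Of 8 smooth muscle and muscle markers 3 were higher and 5 lower (list mean 6.46 to 6.80 against 6.38 to 6.50). Acta2, smooth muscle actin, rose by 1.54 and Tagln by 0.78, while Des, the muscle filament desmin, fell by 0.68 (limma adjusted p = 0.000329, 0.0222 and 0.0104). The part of these markers in the lower Itga7 and Itga6 was not tested.

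Between treatments the adhesion lists, apart from the cell type markers, gave no gene past an unadjusted p of 0.01. This held in each of the 4 treatment comparisons and the interaction for the 35 adaptors, the 23 other basement membrane genes, the 25 other ligands, the 15 other laminin receptors and the 10 integrin partners, where 0.525% to 1.47% of all clusters passed. The ligand list had 17 of 25 members lower with the inhibitor (median -0.14 against -0.0032 over all clusters) and 16 of 25 lower with both against ALA (-0.08 against -0.02). The adaptors had 21 of 35 lower with the inhibitor, with a median of -0.02. Of the cell type markers, Tek passed 0.01 for the inhibitor against control (-0.71, unadjusted p = 0.00151 in limma). Ckm passed for ALA plus inhibitor against ALA (-0.56, unadjusted p = 0.00114) and in the interaction (-0.58, unadjusted p = 0.00858). Emcn passed for ALA plus inhibitor against the inhibitor (-0.50, unadjusted p = 0.00165). All of them were below the array median on every array, and none passed the adjusted threshold.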

How the data were processed

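Total RNA of 12 3T3-L1 cultures (4 treatments, 3 passages) was labelled by a whole-transcript protocol and measured on Affymetrix arrays. The deposited values are log2 signals, 1 per transcript cluster and array, made by the authors; the submitters' processing notes name RMA, with no version. RMA normalizes across arrays and tends to compress differences between dim signals. Gene symbols came from the array annotation held by GEO, which gives a single symbol to 19509 of 22104 clusters. The other 2595, with no symbol or with several, were treated as unnamed.

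No filter or further scaling was applied. In R 4.3.3 with limma 3.58.1, all clusters and 12 arrays entered a linear model of the 4 treatments (8 residual and 4.66 prior degrees of freedom, eBayes, two-sided). Passage 8 was set against passage 6 in a fit with both terms (6 residual degrees of freedom). Calls were an adjusted p under 0.05 over all clusters, and the series' unadjusted p under 0.01. The fit was tested on simulated data. Arrays give no read depth, and their number limits the precision.

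Deviations of same-passage arrays from their group means correlated at 0.16, 0.16 and 0.24 between ALA plus inhibitor and ALA, so passages were taken as paired there. In the other comparisons at least 1 of 3 pairs was under 0.1. The correlations at passages 6, 7 and 8 were 0.013, 0.34 and 0.46 for ALA against control. They were 0.19, 0.078 and 0.36 for the inhibitor against control, and 0.14, 0.092 and 0.27 for ALA plus inhibitor against the inhibitor. Passages 7 and 8 of ALA against control thus correlated more than the pairs taken as paired. Named genes were those at an unadjusted p under 0.01, filled to 4 per comparison by the smallest p, with the main adipocyte and basement membrane subunits; other lists gave up to 3 per comparison, and Thbs1 was added as the remaining adjusted call of its list. Alternatives were quantile normalization, median centring, passage as a block, array weights, an intensity trend, a filter on dim clusters, only the arrays compared, and leaving out arrays or passages. Members and lists were chosen with earlier results of these data known.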

Additional observations from a re-analysis of the deposited data

Results flagged for a closer look

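Itgav and Itgb7 were flagged by the sign of the ALA difference at each passage. The sign was the same at all 3 passages without the inhibitor and the opposite at all 3 passages with it. Some of these signs rest on small differences. At the last passage ALA against control was 0.014 for Itgav and -0.010 for Itgb7. The share of all clusters with this pattern was not computed, so whether the pattern exceeds chance was not tested. For Itgav, ALA was above control at each passage, and ALA plus inhibitor was below the inhibitor alone at each. The difference between these effects was -0.25 (limma, unadjusted p = 0.158). For Itgb7, ALA was below control at each passage, and ALA plus inhibitor was above the inhibitor alone at each. The difference between these effects was 0.27 (limma, unadjusted p = 0.156). Neither passed the test of the difference itself.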

How the results depend on the processing

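The comparisons of the 34 genes depended on the processing in these places. Genes past an unadjusted p of 0.01 (limma) for the inhibitor against control numbered 1, and 2 with array weights or 0 without the dimmest 30% of clusters, a filter that leaves Lama2 out. For ALA plus inhibitor against ALA they numbered 1, and 2 with quantile normalization, 0 with arrays centred on their medians, 0 with array weights, 0 with only the arrays compared, and 3 with passage as a replicate block. For ALA plus inhibitor against the inhibitor they numbered 0, and 1 with array weights or with only the arrays compared. The block also took the inhibitor averaged over both media from 1 to 2, and left the counts at 0.01 of the other single comparisons as they were; in the passage comparison passage is itself the term tested. Adjusted calls for passage 8 against passage 6 numbered 1, and 0 with centred arrays, 2 with an intensity trend and 0 with only passages 6 and 8, where 1 gene in place of 2 was past an unadjusted p of 0.01. Centring shifts all clusters alike, and took the median difference for the inhibitor against control from -0.04 to 0.0043 and that of all clusters from -0.0032 to 0.05. Without the dimmest clusters, where fewer genes remain, the median of the interaction was -0.041 (-0.00080 otherwise). The cause of the other shifts was not tested. With 1 array or passage left out, the counts at an unadjusted p under 0.01 ran from 0 to 1 for ALA, 0 to 2 for the inhibitor, 0 to 1 for ALA plus inhibitor against either single treatment and for the interaction, and 1 to 2 for passage. The adjusted counts were 0 in every treatment comparison and 0 to 1 for passage. The medians ran from -0.053 to 0.074 for ALA, -0.11 to -0.015 for the inhibitor, -0.12 to 0.0084 for ALA plus inhibitor against ALA, -0.065 to 0.017 against the inhibitor, -0.028 to 0.041 for the interaction and -0.022 to 0.033 for passage. Averaging a gene's clusters gave no value of its own, since each gene had 1 cluster. Dim signals and 3 arrays a group limit what can be seen for the 16 dim genes.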
